A study of Rattus norvegicus with 74 samples.

Results

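Slc29a4, Slc37a2 and Atp2b2 encode membrane transporters, and are 3 of the 30560 genes in the deposited count tables. They were selected on measured values, namely a training effect in skeletal muscle that was not seen in mitochondria isolated from the same muscle. The members were thus chosen by the contrast between arms in both tissues, and those contrasts are given here as a description. Where it is said which members are among the genes called in them, this supports nothing. The left ventricle, the differences between tissues averaged over arms, and the variation among rats of one arm were not used in the choice and carry the tests below, although the ventricles came from rats whose muscle was.

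Slc29a4 encodes the plasma membrane monoamine transporter, which moves serotonin, dopamine and other organic cations, and also adenosine at acidic pH, across the cell surface. Slc37a2 encodes a sugar phosphate antiporter of the endoplasmic reticulum that exchanges glucose 6-phosphate for inorganic phosphate and is best known from macrophages. Atp2b2 encodes PMCA2, a plasma membrane calcium pump that uses ATP to expel calcium and is best known from neurons and the hair cells of the ear. In muscle, most calcium cleared after a contraction is pumped back into the sarcoplasmic reticulum by the related SERCA pumps.

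All animals were wild-type male Wistar Kyoto rats, 9 weeks old at sampling, which drank water enriched with deuterium oxide. The trained arm (ExT) ran on a motorised treadmill for 4 weeks from 5 weeks of age, on 5 days a week, reaching 60 min at 20 m/min, and tissue was taken 24 h after training ended. Rats of the sedentary arm (Sed) stood on a stationary treadmill for the same time. Libraries came from whole skeletal muscle (SM, the inner red part of the gastrocnemius), from mitochondria of a fresh piece of that muscle (MT, pulled down with an antibody and purified by RNase-A and proteinase-K digestion), and from the wall of the left ventricle (LV). The same 30 rats gave SM and MT libraries, 15 in each arm (SM_Sed, SM_ExT, MT_Sed, MT_ExT), and 7 rats of each arm also gave LV libraries (LV_Sed, LV_ExT). SM libraries were made from 50 ng and MT libraries from 10 ng of RNA with the same kit, and LV libraries from 100 ng with another, so the tissue, kit and input cannot be told apart where tissues are compared.

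Total counts per library were 19477976 to 39401323 in SM, 530397 to 9988027 in MT and 54645657 to 75758777 in LV. Counts of genes on the mitochondrial genome took 22.1 to 35.9% of a library in SM, 12.9 to 95.4% in MT and 39.9 to 50.7% in LV. Levels are therefore given as nuclear CPM, a library's CPM computed over the counts of its 30523 nuclear-encoded genes only. A floor of 3 counts equals 0.115 to 0.226 nuclear CPM in SM, 2.84 to 6.97 in MT and 0.0713 to 0.101 in LV, and covers counting error only. The 7 skeletal muscle markers summed to 51896 to 72888 nuclear CPM in SM. In LV the 7 heart markers summed to 52092 to 65956, against 21.8 to 122 in SM. In MT, 1278 olfactory, vomeronasal and trace amine receptor genes, which muscle is not known to use, had a median of 9.76 nuclear CPM, against 0 in SM and LV. All 3 members lay above the median of these receptor genes in MT, with mean levels of 47.9, 78.5 and 111 for Slc29a4, Slc37a2 and Atp2b2. In that order they lay above 98.5%, 99.8% and 99.8% of the receptor genes. The 95th percentile of the receptor genes was 34.9, and the highest receptor gene reached 114. Other genes of the lists used here that were near 0 in muscle reached similar levels in MT, named after their values were seen. The dopamine transporter gene Slc6a3 had 0 in SM_Sed and 54.0 ± 9.17 (SD, n = 15) in MT_Sed, Slc18a1 had 0.00428 and 48.0, Hk3 had 0.0850 and 85.1, and Atp2c2 had 0.0221 and 86.3. Whether the same source gave the receptor and the member counts in MT was not tested.

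The 250 bases before the start of each gene are shown because all 3 members had higher levels in trained muscle, and the make-up of this stretch can be set side by side. They were taken from RefSeq (build GRCr8, minus strand in all 3 cases), whereas the counts were made on mRatBN7.2, and they lie at chr12:16988339-16988588 for Slc29a4, chr8:45160190-45160439 for Slc37a2 and chr4:148763654-148763903 for Atp2b2. Capitals mark GC boxes (GGGCGG) on either strand, each sequence running 5′ to 3′.
Slc29a4: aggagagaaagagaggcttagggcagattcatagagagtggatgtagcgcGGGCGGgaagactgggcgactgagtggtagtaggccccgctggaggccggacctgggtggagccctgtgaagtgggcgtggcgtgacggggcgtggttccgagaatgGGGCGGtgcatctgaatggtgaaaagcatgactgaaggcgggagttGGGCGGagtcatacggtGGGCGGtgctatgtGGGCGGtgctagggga
Slc37a2: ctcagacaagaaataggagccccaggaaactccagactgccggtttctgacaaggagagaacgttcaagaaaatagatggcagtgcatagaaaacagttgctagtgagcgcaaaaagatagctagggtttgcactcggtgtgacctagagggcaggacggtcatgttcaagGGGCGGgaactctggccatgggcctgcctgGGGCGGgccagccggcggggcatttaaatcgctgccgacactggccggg
Atp2b2: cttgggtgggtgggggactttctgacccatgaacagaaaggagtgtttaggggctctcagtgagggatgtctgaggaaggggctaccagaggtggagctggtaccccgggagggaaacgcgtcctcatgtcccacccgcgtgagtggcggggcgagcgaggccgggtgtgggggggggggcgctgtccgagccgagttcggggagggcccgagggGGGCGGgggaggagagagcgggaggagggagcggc
Counting both strands, Slc29a4 held 5 GC boxes, Slc37a2 held 2 and Atp2b2 held 1. Of 27457 rat promoters of this length, 32.4% held at least 1 and 1.84% held 5 or more. An E-box (CANNTG) stood in the Slc29a4 and Slc37a2 stretches, as in 65.2% of promoters, and a nuclear receptor half-site (AGGTCA) in that of Slc37a2, as in 13.7%. A TATA box (TATAAA), which 13.1% of promoters held, and a cAMP response element (TGACGTCA), which 1.7% held, matched in none of the 3. The G and C content was 62.4% for Slc29a4, 56.4% for Slc37a2 and 69.2% for Atp2b2, against a median of 52% over all these promoters. A match describes these letters only. In the RefSeq annotation the Atp2b2 gene overlaps 3 long non-coding genes, LOC134486624, LOC120102365 and LOC134486625, and no gene overlaps the other members. Because the strand setting of the counting is not given in the sources used here, reads of Atp2b2 and of these neighbours may be mixed.

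Slc29a4 (ENSRNOG00000001115), the monoamine transporter, was scarce in whole muscle and higher in trained rats. In SM_Sed its level had a lowest value of 0.115, a median of 0.423 and a highest value of 0.826 nuclear CPM, from 2 to 17 counts a library. In SM_ExT the lowest value was 0.494, the median 1.05 and the highest 2.79, from 9 to 55 counts. The groups overlapped, but 10 of 15 trained libraries lay above every sedentary one and all 15 lay above the sedentary median. The means were 0.487 ± 0.240 (SD, n = 15) in SM_Sed and 1.21 ± 0.651 (SD, n = 15) in SM_ExT, and the fitted log2 fold change was 1.23 (SE 0.258). Slc29a4 passed the filter on low counts through its trained group: 13 of 15 ExT libraries and 7 of 15 Sed libraries reached the required level.

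Slc37a2 (ENSRNOG00000039390), the sugar phosphate antiporter, was measured with far more counts and showed a smaller ratio. Its level in SM_Sed ran from 4.64 over a median of 8.29 to 16.1 nuclear CPM. In SM_ExT it ran from 7.60 over 12.8 to 19.2. Here 14 of 15 trained libraries lay above the sedentary median, but only 3 lay above every sedentary library. Rat 29 was the highest of the sedentary arm. The means were 8.83 ± 2.97 (SD, n = 15) and 13.2 ± 3.46 (SD, n = 15) for SM_Sed and SM_ExT, with a fitted log2 fold change of 0.53 (SE 0.131).

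Atp2b2 (ENSRNOG00000030269), the calcium pump, was again scarce in muscle, with 7 to 39 counts a library in SM_Sed and 9 to 60 in SM_ExT. Its level ran from 0.362 over a median of 0.878 to 1.87 nuclear CPM in SM_Sed, and from 0.563 over 1.92 to 2.70 in SM_ExT. Of the trained libraries, 8 of 15 lay above every sedentary one and 14 above the sedentary median. The exception was rat 9, the lowest trained library. The means were 1.01 ± 0.479 (SD, n = 15) and 1.80 ± 0.575 (SD, n = 15), with a fitted log2 fold change of 0.78 (SE 0.209). The plot of levels in each library shows these overlaps beside the other tissues.

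**Figure D1:**
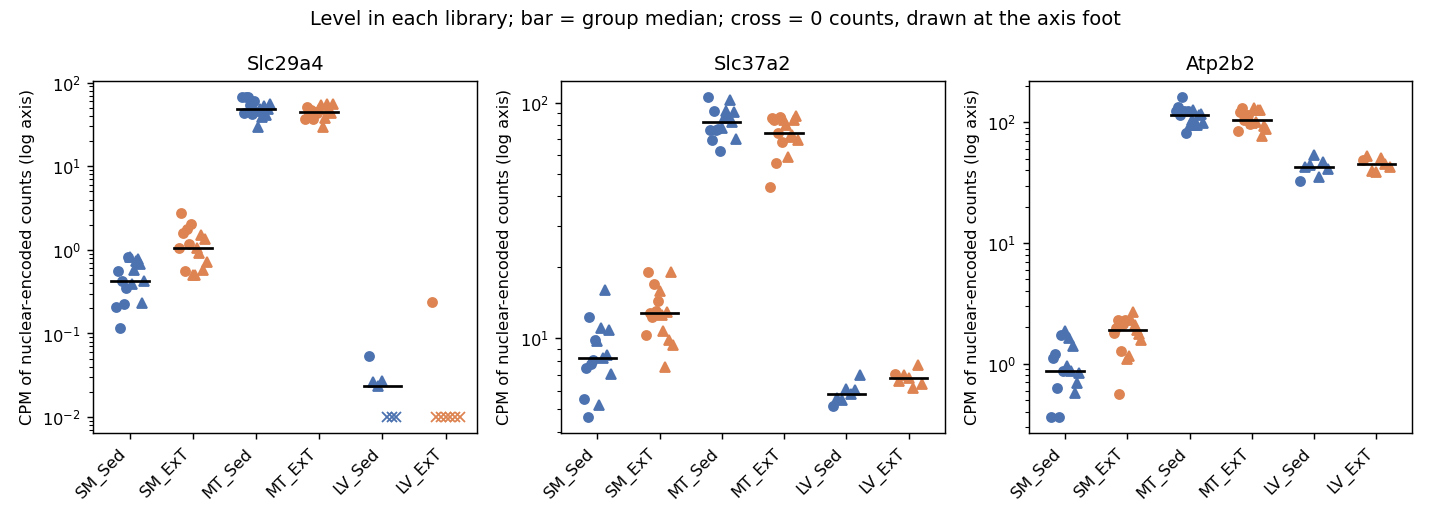
Level of each member in every library, in nuclear CPM on a log axis, for the 6 groups; circles are rats 2 to 16, triangles rats 17 to 32, bars group medians, and crosses libraries with 0 counts. All 3 members were highest in MT; Atp2b2 was next highest in LV, and Slc29a4 was near 0 there.

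In the fit across all genes of whole muscle, 0.206% of 13570 genes passed an adjusted p of 0.05 for training (0.184% higher, 25 genes, and 0.0221% lower), and 1 of the 3 members, Slc29a4, was among them. Adjusted p-values for Slc37a2 and Atp2b2 did not pass, and Slc29a4 did not pass without any one of 10 of the 30 libraries (4 sedentary and 6 trained). Because the members were chosen for this contrast, nothing is read from the count. In bulk RNA, fewer cells of a type and less RNA per cell cannot be told apart.

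The rat numbers were split into 2 ranges, 2 to 16 and 17 to 32, each with both arms. This split was taken because SM and MT libraries of the ranges had differed in earlier results of the same data. The trained to sedentary ratio was not of one size across the ranges. For Slc29a4 the mean in rats 2 to 16 was 0.386 ± 0.244 (SD, n = 7) in SM_Sed and 1.57 ± 0.726 (SD, n = 7) in SM_ExT, a ratio of 4.06. In rats 17 to 32 it was 0.576 ± 0.211 (SD, n = 8) and 0.889 ± 0.389 (SD, n = 8), a ratio of 1.54. In the earlier range 6 of 7 trained libraries stood above every sedentary one, and in the later range 4 of 8. For Slc37a2 the ratios were 1.78 and 1.28, with 6 of 7 and 1 of 8 trained libraries above all sedentary ones. For Atp2b2 they were 1.97 and 1.65, with 5 of 7 and 4 of 8. All 3 ratios were above 1 in both ranges and larger in rats 2 to 16, and whether the ranges differ in response was not tested. With arm held as a covariate, 13% of genes in SM differed between the ranges (edgeR quasi-likelihood test, 13570 genes). Since the split was taken for such a difference, nothing is read from this share. None of the 3 members was among these genes. Rats 17 to 32 differed from rats 2 to 16 by a log2 value of -0.30 (95% interval -0.82 to 0.22) for Slc29a4, -0.02 (-0.29 to 0.25) for Slc37a2 and 0.13 (-0.30 to 0.56) for Atp2b2.

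**Figure D2:**
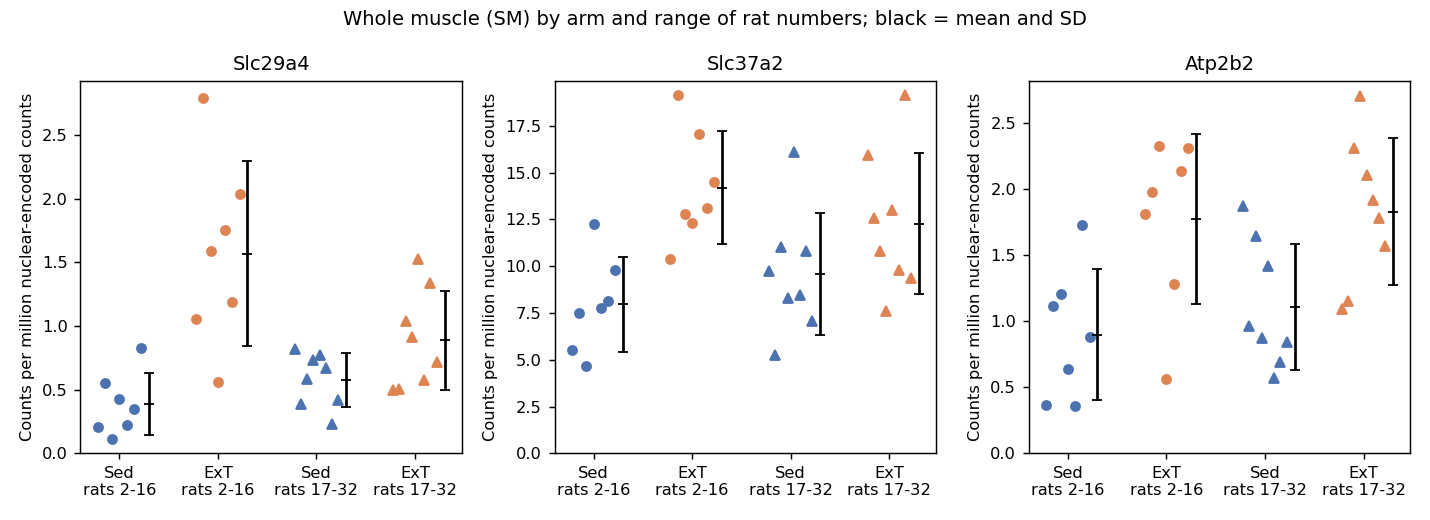
Level of each member in whole muscle, in nuclear CPM, by arm and range of rat numbers, with mean and SD in black. The gap between arms was widest for Slc29a4 in rats 2 to 16, with means of 0.386 and 1.57.

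In the isolated mitochondria the trained level of no member exceeded the sedentary level on average. Slc29a4 had a lowest, median and highest level of 29.1, 48.2 and 67.3 nuclear CPM in MT_Sed, and of 29.3, 44.8 and 56.3 in MT_ExT. Slc37a2 had 62.1, 83.1 and 106 in MT_Sed, and 43.8, 74.4 and 87.3 in MT_ExT. Atp2b2 had 81.7, 115 and 162 in MT_Sed, and 77.9, 104 and 131 in MT_ExT. The arms overlapped almost entirely: no trained library lay above every sedentary one, and 6 of 15 lay above the sedentary median for each member. The fitted log2 fold changes were -0.13 (SE 0.114) for Slc29a4, -0.16 (SE 0.0898) for Slc37a2 and -0.07 (SE 0.0814) for Atp2b2. In rats 2 to 16, none of the 7 trained MT libraries exceeded the sedentary median of Slc29a4, with a ratio of 0.762, against 1.04 in rats 17 to 32. Training passed the adjusted threshold for 0% of 19281 genes in MT (edgeR, 912 at an unadjusted p under 0.05).

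Counts in MT were small, 16 to 67 a library for Slc29a4, 20 to 92 for Slc37a2 and 39 to 163 for Atp2b2, and counting error was a large part of their spread for Slc29a4 and Slc37a2. The variance between MT libraries relative to the Poisson variance was 1.88 in Sed and 0.891 in ExT for Slc29a4, and 1.17 and 1.33 for Slc37a2. For Atp2b2 it was higher, 3.01 and 2.16. In SM the same ratio was 2.23 and 6.99 for Slc29a4, 17.5 and 18.1 for Slc37a2, and 4.48 and 3.44 for Atp2b2.

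The training difference in MT minus that in SM was -1.39 (SE 0.263) on the log2 scale for Slc29a4, -0.73 (SE 0.167) for Slc37a2 and -0.88 (SE 0.199) for Atp2b2. In this contrast 0.0181% of 27684 genes passed the adjusted threshold (0.00361% with a higher and 0.0144% with a lower training difference in MT), 5 genes with Slc29a4 as the 1 member among them. This contrast is the one the choice rested on. With the rat number as a replicate block, since each MT library has an SM library of the same animal, the values were -1.31, -0.72 and -0.89 and none of the members passed.

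**Figure D3:**
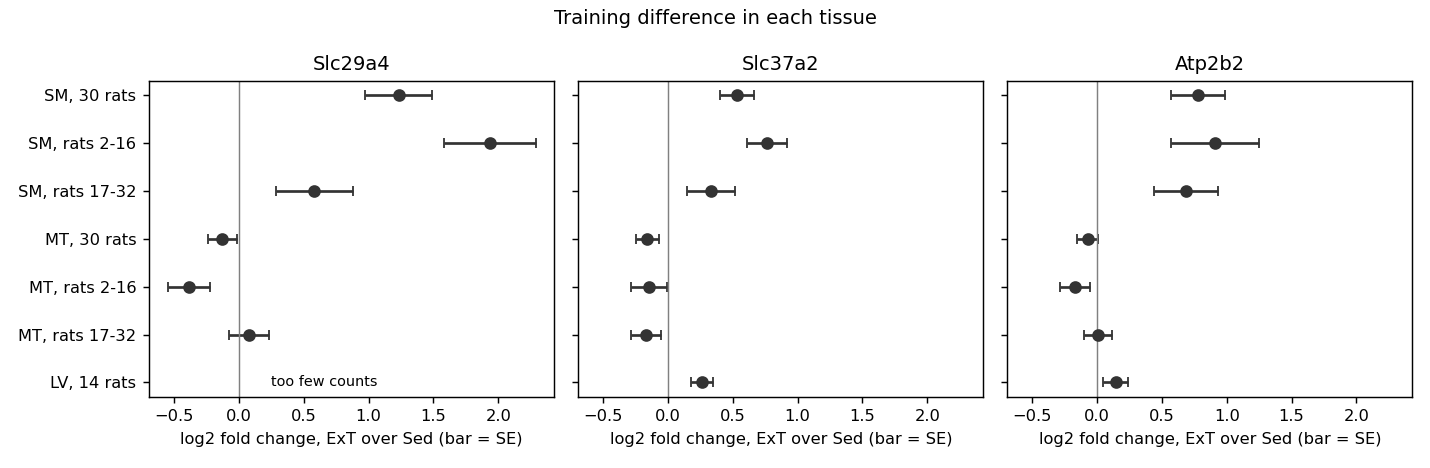
Training difference (log2 fold change, ExT over Sed) with SE for each member, in SM and MT over all 30 rats and within each range of rat numbers, and in LV over 14 rats. Values were above 0 in SM in both ranges and close to or below 0 in MT; Slc29a4 had too few counts in LV.

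The left ventricle gives the same training contrast in a tissue that the choice did not use, though in 14 of the rats that it did, and there 0% of 14488 genes passed the adjusted threshold in edgeR, with 855 at an unadjusted p under 0.05 and 1 gene passing in DESeq2. Of these rats, 6 in each arm were numbered 17 to 32, and 1 in each arm 2 to 16. Of the members tested, Slc37a2 had the larger difference between arms, although the arms overlapped. Its level in LV_Sed had a lowest, median and highest value of 5.17, 5.81 and 6.97 nuclear CPM, and in LV_ExT of 6.16, 6.79 and 7.69. All 7 trained libraries stood above the sedentary median, and 3 of 7 lay above every sedentary one. Of the sedentary libraries, 6 of 7 lay below every trained one. The means were 5.88 ± 0.581 (SD, n = 7) and 6.82 ± 0.502 (SD, n = 7). The log2 fold change was 0.26 (SE 0.0817, 95% interval 0.09 to 0.43), a 1.20-fold difference. Taken alone it had a two-sided exact permutation p of 0.00291 over 7 against 7 libraries, but among all genes the edgeR adjusted p was 0.804, so the difference did not survive the correction. The log2 fold change was within 0.23 to 0.31 when any one library was left out, and 0.24 (SE 0.0921) in rats 17 to 32 alone. The training difference of Slc37a2 in LV minus that in SM of the same 14 rats was -0.18 (SE 0.205). This value holds the SM difference that chose Slc37a2, and is a description. With arm means taken off, its levels in LV and SM of one rat had r = 0.40 (permutation p = 0.154) and rho = 0.48 (permutation p = 0.0864), adjusted over 5 such relations 0.385 and 0.216, and r = 0.27 without the 2 farthest rats. The relation did not pass, and over 14 rats one of moderate size cannot be told from none. The sign of training log2 fold changes in LV differed between marker lists, with no gene past the adjusted threshold. Values were above 0 for 7 of 7 heart genes (median 0.13), 7 of 9 endothelial and 6 of 8 slow-fibre genes. The same held for 4 of 5 skeletal muscle and 4 of 7 smooth muscle genes. Fewer were above 0 among macrophage genes (0 of 10, median -0.09) and fibroblast genes (0 of 6, median -0.14). Nerve and Schwann cell genes had 2 of 8 (median -0.20), adipocyte genes 1 of 3 and fast-fibre genes 0 of 2. The summed heart level ran from 52092 to 62059 nuclear CPM in LV_Sed and from 56359 to 65956 in LV_ExT. The part of these genes in the difference of Slc37a2 between arms was not tested.

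Atp2b2 was abundant in the ventricle and overlapped between arms. Its lowest, median and highest levels were 33.0, 42.5 and 53.7 nuclear CPM in LV_Sed and 38.5, 44.9 and 52.7 in LV_ExT, and 4 of 7 trained libraries lay above the sedentary median. The log2 fold change was 0.14 (SE 0.0992, 95% interval -0.07 to 0.35), with an edgeR adjusted p of 0.834 and an exact permutation p of 0.210. The interval includes no change and a 1.28-fold higher level. The training difference of Atp2b2 in LV minus that in SM was -0.52 (SE 0.253), which holds the SM difference that chose it and is a description.

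Slc29a4 was at or near the detection floor in the ventricle and was not tested there. LV_Sed libraries held 0 to 2 counts, 6 of 7 LV_ExT libraries held 0, and rat 14 held 9. Pooled over 14 LV libraries, 14 counts gave 0.0271 nuclear CPM (exact Poisson 95% interval 0.0148 to 0.0455, covering counting error only and not the spread between rats). Without rat 14, left out after seeing the data, 5 counts gave 0.0104 (0.00339 to 0.0244). In muscle of the same 14 rats, 227 counts gave 0.823 (0.719 to 0.937). The LV library of rat 14 also had the highest sums of the fibroblast markers (7343 against 3036 to 6747 nuclear CPM), the smooth muscle markers (1129 against 638 to 998) and the nerve and Schwann cell markers (113 against 59.7 to 106) of the 14. Their part in the 9 counts was not tested.

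The 3 members differed in how they were spread over the tissues. Averaged over arms, 85.3% of 15049 genes differed between LV and SM of the same rats, 42.8% higher and 42.5% lower in LV, so that a difference alone says little and the sizes matter. Slc29a4 was lower in LV in 14 of 14 rats. It entered that fit through SM alone, with no LV library at the level the filter asks for, so its size is given by the pooled levels above and not by a fitted fold. On the TMM scale of the fit, Slc37a2 was lower in LV by a log2 value of -1.36 (SE 0.104, edgeR adjusted p = 1.3e-13), a fold of 0.390. In nuclear CPM its LV to SM ratio within a rat had a median of 0.560 and was above 1 in 1 of 14 rats. Atp2b2 was higher by 4.51 on the TMM scale (SE 0.121, edgeR adjusted p = 6.2e-25), a fold of 22.8. In nuclear CPM it was higher in 14 of 14 rats, with a median ratio of 35.9. The edgeR fit did not pair the libraries of a rat. With the rat as a replicate block the edgeR adjusted p was 1.0e-11 for Slc37a2 and 2.2e-18 for Atp2b2. In nuclear CPM the order of Slc29a4 and of Slc37a2 was MT, SM, LV, and that of Atp2b2 was MT, LV, SM. Slc37a2 overlapped between LV and SM_Sed, where levels ran from 5.17 to 7.69 and from 4.64 to 16.1.

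In MT libraries all 3 members took larger shares of the nuclear-encoded counts than in whole muscle, in 30 of 30 rats. Genes near 0 in muscle, such as Slc6a3 and Atp2c2 above, also reached similar levels in MT. The source of the member counts in MT was not tested. The MT to SM ratio within a rat had a median of 74.2 for Slc29a4, 7.44 for Slc37a2 and 83.9 for Atp2b2. In the edgeR fit, 96.8% of 27684 genes differed between MT and SM, 67.9% higher in MT. On its TMM scale the members were higher in MT by log2 values of 3.74 (SE 0.132), 0.68 (SE 0.0838) and 4.16 (SE 0.0999), with edgeR adjusted p of 8.9e-43, 7.6e-12 and 5.4e-53. The median over all genes was itself 3.38, so relative to it Slc29a4 stood at 0.36, Slc37a2 at -2.70 and Atp2b2 at 0.78. Scaling by library totals alone gave 5.47, 2.41 and 5.94 with a median of 5.05, and raised the share of calls that were higher in MT from 70.2% to 88.2%. With every library thinned to the smallest total, the values were 5.31, 1.94 and 5.26 and the median of the genes still tested fell to 0.96, which put Slc37a2 at 0.98 above it. The place of Slc37a2 relative to the median gene thus turned with thinning, which leaves fewer genes to test, while each member stayed higher in MT under every scaling tried.

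Among whole-muscle libraries of the same arm and range of rat numbers, Slc29a4 passed the threshold with each of the other members by Pearson's r but not by Spearman's rho. Pearson's r over 30 libraries, after the mean of each arm within each range was taken off, was 0.42 between Slc29a4 and Slc37a2 (permutation p = 0.0206, adjusted over 3 pairs 0.0309). Spearman's rho was 0.43 (permutation p = 0.0189, adjusted 0.0510). Without the 2 libraries farthest from the median of Slc29a4, r was 0.49. Between Slc29a4 and Atp2b2 r was 0.45 (permutation p = 0.0117, adjusted 0.0309) and rho was 0.39 (permutation p = 0.0340, adjusted 0.0510). Without the 2 farthest libraries that r was 0.28 (permutation p = 0.147). With these means taken off, the relation thus rests on those libraries. With arm means alone taken off, Slc29a4 and Slc37a2 had r = 0.49 and rho = 0.49 (adjusted permutation p = 0.0166 and 0.0194). Slc29a4 and Atp2b2 had r = 0.42 and rho = 0.34 (adjusted permutation p = 0.0319 and 0.0960). Without the 2 libraries then farthest, r was 0.54 for Slc29a4 and Atp2b2 (permutation p = 0.0029). It was 0.37 for Slc29a4 and Slc37a2 (permutation p = 0.0526). Over all 30 libraries both pairs thus passed by r with either means taken off. Which pair held without 2 libraries depended on the means taken off. Between Slc37a2 and Atp2b2 r was -0.07 and rho was -0.09 (permutation p = 0.728 and 0.620), and the difference between pairs was not tested.

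The level of Slc37a2 in muscle varied with the fibre type genes. The 8 slow-fibre genes (the slow myosin Myh7 and its troponins, SERCA2 and others) summed to 6436 to 40432 nuclear CPM in SM_Sed and 7524 to 43798 in SM_ExT. Over the 30 libraries, with the mean of each arm within each range taken off, Slc37a2 had r = 0.78 and rho = 0.78 with that sum. The permutation p was 1e-05 for both, the smallest that 100000 resamples can give, and adjusted over 36 relations it was 0.00012 and 0.00018. Without the 2 farthest libraries r was 0.79, and within rats 2 to 16 and 17 to 32 it was 0.80 and 0.77. With the 7 fast-fibre genes in the tables r was -0.75 and rho was -0.75 (permutation p = 1e-05 for both), and -0.86 and -0.69 within the ranges. Slc37a2 also varied with the share of counts from the mitochondrial genome (r = 0.56, adjusted permutation p = 0.0118) and the heart markers, several of which slow muscle also uses at low level (r = 0.71, adjusted permutation p = 0.00012), with rho of 0.64 and 0.65 that passed too. With the endothelial markers r passed (0.54, adjusted permutation p = 0.0162) and rho did not (0.47, adjusted 0.0548). With the nerve and Schwann cell markers rho passed (0.52, adjusted permutation p = 0.0238) and r did not (0.47, adjusted 0.0562).

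No such relation passed for the other members. With the slow-fibre sum r was 0.24 for Slc29a4 and -0.05 for Atp2b2 (permutation p = 0.204 and 0.774), and with the fast-fibre sum -0.22 and 0.00 (permutation p = 0.247 and 0.979). Within rats 2 to 16 and 17 to 32, Slc29a4 had 0.46 and 0.01 with the slow-fibre sum. With the fast-fibre sum it had -0.53 and 0.08. For Atp2b2 these were -0.08 and -0.02, and -0.03 and 0.04. Both genes had few counts in SM, so a relation of moderate size can be missed. None of the 12 measures gave either gene an adjusted p under 0.05. The macrophage markers, of interest because macrophages use Slc37a2, had r = 0.13 with it (permutation p = 0.512), and its difference from the slow-fibre relation was not tested.

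**Figure D4:**
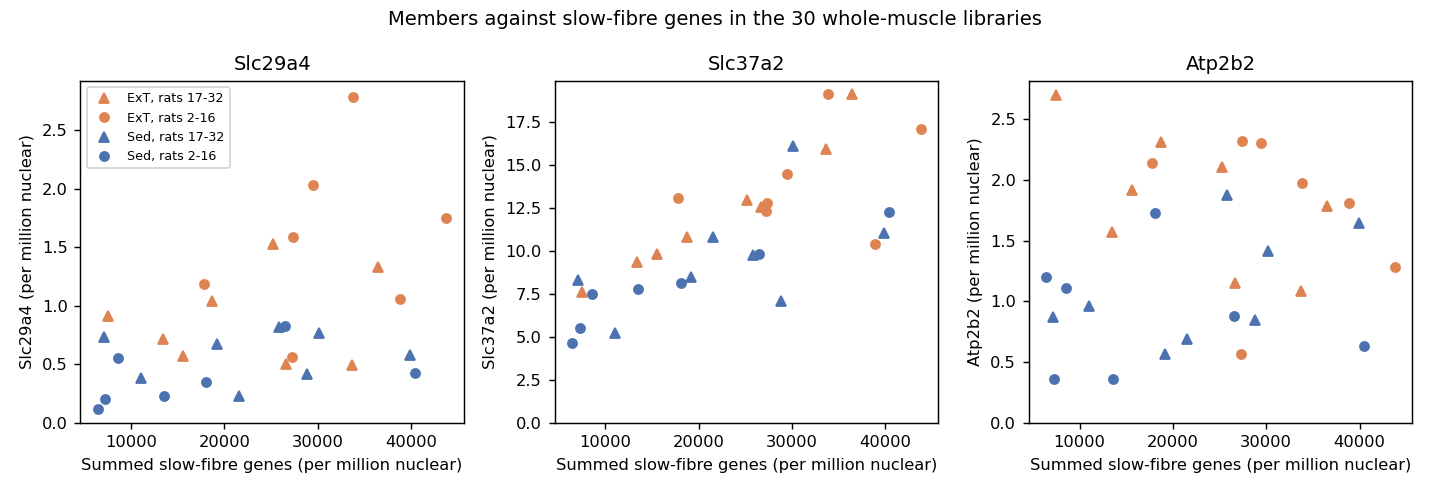
Level of each member against the summed level of 8 slow-fibre genes in the 30 whole-muscle libraries, both in nuclear CPM, coloured by arm and shaped by range of rat numbers. Slc37a2 rises with the sum (r = 0.78 within arm and range), and Slc29a4 and Atp2b2 show r of 0.24 and -0.05.

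Several marker lists leaned one way between the arms in SM, beside the members, with no gene past the threshold. All 8 slow-fibre genes had log2 fold changes above 0 for training, with a median of 0.34, and 1 of 7 fast-fibre genes did, with a median of -0.27. The median over all genes was -0.01. The summed slow-fibre level had a median of 19204 nuclear CPM in SM_Sed and 27247 in SM_ExT. All 8 nerve and Schwann cell genes tested were above 0 (median 0.46), and their sum had a median of 77.6 in SM_Sed and 177 in SM_ExT. The smooth muscle genes (7 of 7, median 0.19) and endothelial genes (8 of 9, median 0.20) were above 0, while macrophage genes (0 of 10, median -0.35) and fibroblast genes (0 of 6, median -0.17) were below. The summed fibroblast level had a median of 4955 in SM_Sed and 4923 in SM_ExT. No gene of any of these lists passed the adjusted threshold in SM, MT or LV (edgeR). Their part in the training difference of the members was not tested.

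None of the 9 close relatives of the members passed the adjusted threshold for training in SM, MT or LV (edgeR), Atp2b3 having too few counts to be tested in LV. The members were chosen for their training difference in SM and the relatives were not. A gap between members and relatives in SM thus supports nothing. In SM the equilibrative nucleoside transporters Slc29a1, Slc29a2 and Slc29a3 stood at -0.13 (SE 0.0615), -0.13 (SE 0.0935) and -0.05 (SE 0.110) as log2 training differences. Slc29a1, the main nucleoside carrier of most cells, had 27.8 ± 2.71 nuclear CPM (SD, n = 15) in SM_Sed and 26.4 ± 4.32 (SD, n = 15) in SM_ExT. Of the sugar phosphate family, Slc37a1 and Slc37a3 lay at -0.03 (SE 0.0838) and -0.01 (SE 0.0834). Slc37a4, the glucose 6-phosphate carrier that works with glucose-6-phosphatase, lay at -0.20 (SE 0.106), with 80.9 ± 17.7 nuclear CPM (SD, n = 15) in SM_Sed and 73.7 ± 9.68 (SD, n = 15) in SM_ExT. Among calcium pumps, the widely used Atp2b1 lay at -0.02 (SE 0.0468), Atp2b3 at -0.06 (SE 0.116) and Atp2b4 at 0.18 (SE 0.0787).

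Across tissues the relatives had profiles of their own. Atp2b3 was 41.9 ± 8.77 nuclear CPM (SD, n = 15) in SM_Sed but 0.0665 ± 0.0701 (SD, n = 7) in LV_Sed, where it held at most 6 counts. Atp2b2 had the opposite order, with 1.01 in SM_Sed and 42.5 in LV_Sed. Atp2b1 was close to level, at 85.5 ± 7.74 (SD, n = 15) in SM_Sed and 88.7 ± 3.42 (SD, n = 7) in LV_Sed. Slc37a1 was higher in LV_Sed, at 24.9 ± 4.14 (SD, n = 7), than in SM_Sed, at 6.20 ± 0.956 (SD, n = 15), and Slc37a4 was lower, at 34.7 ± 1.38 (SD, n = 7). Slc29a1 was present in both, at 39.7 ± 4.30 (SD, n = 7) in LV_Sed. Of the 9 relatives, 7 had higher mean nuclear CPM in MT_Sed than in SM_Sed, from Atp2b3 (57.2 against 41.9) to Slc29a3 (39.7 against 4.24), and Slc37a4 (42.4 against 80.9) and Atp2b1 (77.1 against 85.5) had lower ones. These are means, with no test.

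**Figure D5:**
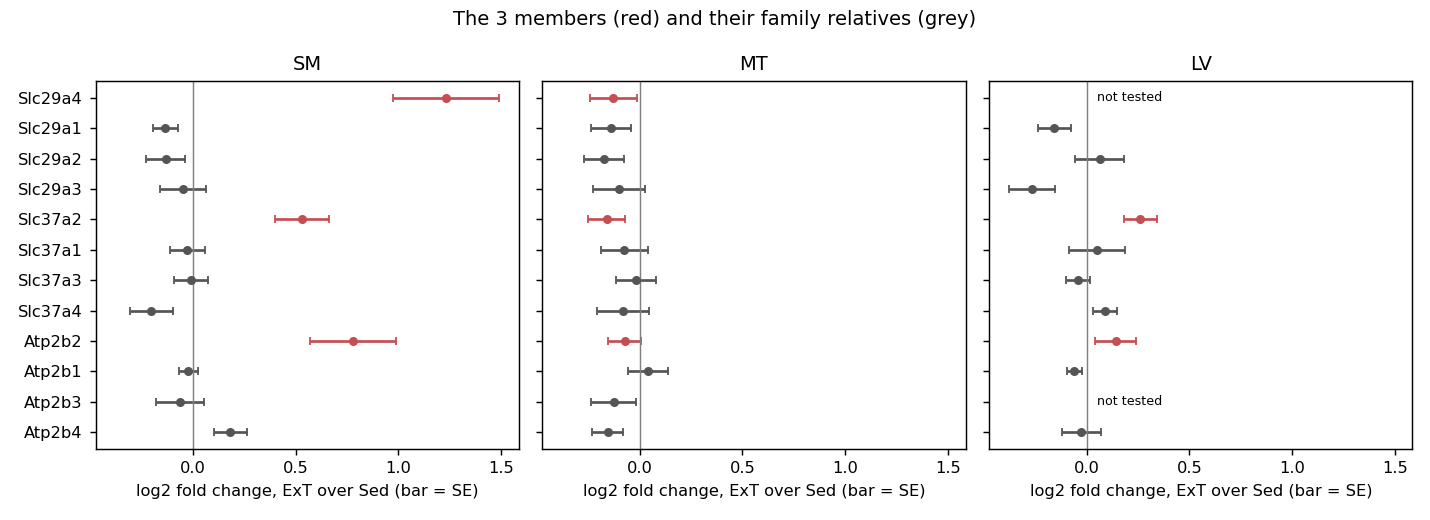
Training difference (log2 fold change, ExT over Sed) with SE for the 3 members (red) and 9 family relatives (grey) in SM, MT and LV. In SM the relatives lie between -0.20 and 0.18, and the members at 0.53 to 1.23. The members were chosen for this difference in SM and the relatives were not, so the gap supports nothing.

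In the wider lists around each member, no gene passed for training in SM (edgeR). Of 12 tested genes of nucleoside and monoamine transport and breakdown, 7 had log2 fold changes above 0, with a median of 0.02. Of 12 tested genes of glucose 6-phosphate handling, 7 were above 0 (median 0.02), of 12 calcium pumps and exchangers 6 (median -0.01), and of 9 adenosine genes 7 (median 0.10). In LV, where the difference of Slc37a2 did not pass the adjusted threshold, 12 of 14 genes of glucose 6-phosphate handling lay above 0. Their median was 0.09, against 0.00 over all genes and 0.13 for the heart markers. None passed the adjusted threshold (edgeR). In MT 4 of 14 lay above 0, with a median of -0.04.

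The genes most like each member among rats were named by the highest r with it over the 30 SM libraries, with the mean of each arm within each range taken off, as a description. For Slc29a4 they were Zfp14 (0.74), Oplah (0.67), Hcn2 (0.66), Acox2 (0.65) and Twnk (0.65), among 11450 genes of which the highest 1% began at 0.48. Twnk encodes the helicase of mitochondrial DNA, Acox2 a peroxisomal oxidase and Hcn2 a pacemaker channel. The lowest were Haus7 (-0.67) and SNORA73 (-0.64). For Slc37a2 they were Fndc5 (0.86), Rbck1 (0.86), Flad1 (0.85), Vegfb (0.85) and Kremen1 (0.83), where the highest 1% of 11449 genes began at 0.72. Fndc5 encodes the precursor of irisin, Flad1 the enzyme that makes FAD and Vegfb a growth factor. The lowest were Lcor (-0.84) and Sec16b (-0.84). For Atp2b2 they were 1600014C10Rik (0.67), Cdk19 (0.64), Foxn2 (0.62), Cdk9 (0.62) and Hipk1 (0.61), where the highest 1% began at 0.44. Slc37a2 thus had many genes that varied closely with it, and the other members, with few counts, had less close ones.

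Over the 14 LV libraries, with arm means taken off, Slc37a2 was most like Imp4 (0.87), Plscr4 (0.80) and the potassium channel gene Kcnj2 (0.79), and least like Esr1 (-0.84), the estrogen receptor. Atp2b2 was most like Whamm (0.87), Gna11 (0.84) and Scrib (0.83). None of these was among the 5 named for the same member in muscle.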

How the data were processed

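The authors deposited counts per gene for SM, MT and LV as 3 tables, whole numbers per library with no normalization. Per the submitters' processing notes, FastQC 0.74, cutadapt 4.6, STAR 2.7.11a, HTSeq and the genome build mRatBN7.2 were used; the strand setting is not given in the sources used here. All 74 libraries were placed by title, and 0 columns belonged to no sample. Libraries of a group differed by more than counting noise in every pair (lowest chi-square per degree of freedom 1.23).

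Differences were tested with edgeR 4.0.16 (quasi-likelihood F test, robust, TMM, filterByExpr, Benjamini-Hochberg over all genes tested; R 4.3.3) on the deposited counts, and by exact permutation for single values in LV; the test was checked on simulated counts. DESeq2 1.42.0 was an alternative. Training in SM and in MT, and their difference, chose the members and are descriptions. The training difference in LV minus that in SM holds the SM contrast and is a description too. The members, lists and comparisons were chosen with earlier results of these data known. SM, MT and LV libraries of one number come from the same rat. After group means were taken off, the median correlation across genes was 0.0150 for SM and MT of one rat (-0.0746 to 0.174), against 0.000877 for different rats. For SM and LV it was 0.0274 (-0.163 to 0.163), against -0.00463. Means of the rat ranges were not taken off, so these values do not test the pairing. Named relatives were Slc29a1 to Slc29a3, Slc37a1, Slc37a3, Slc37a4, Atp2b1, Atp2b3 and Atp2b4, and the genes most like a member were the 5 of highest and of lowest r with a mean of at least 1 CPM. Marker sums were logged after adding 0.1 nuclear CPM. RefSeq gave promoters for all 3 members by symbol. Slc22a4, G6pc1, G6pc2, Atp2a1, Pln, Myh1 and Pvalb of the lists were not used here. Alternatives were other scaling, no filter, DESeq2, rat ranges, a replicate block, thinning and leaving out libraries.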

Additional observations from a re-analysis of the deposited data

Results flagged for a closer look

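One value was far from the other libraries of its group, among 6 sets of 7 LV libraries examined (the members in each arm). Chance meets this check in about 1 group of 20 for normally spread values, a rate that does not apply to counts near 0. Slc29a4 in LV_ExT of rat 14 was 0.2377 nuclear CPM (9 counts), and the other 6 libraries of the group held 0 counts. With the others at 0, any count above 0 in that library would have been flagged.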

How the results depend on the processing

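Leaving aside the fits without single libraries, the alternatives named in the methods moved 7 values beyond the spread between rats or, for counts, by over 1.5 times, and brought 1 past the threshold, and no tested direction turned. For training in MT, which was not tested, rats 17 to 32 alone gave 0.08 for Slc29a4 and 0.01 for Atp2b2, above 0. For training in SM, Slc29a4 had a log2 fold change of 1.94 in rats 2 to 16 and 0.58 in rats 17 to 32, where it was not called, Slc37a2 was called in rats 2 to 16 (0.76), and the genes called numbered 396 in rats 2 to 16, 1 in rats 17 to 32 and 45 with the range as a covariate. The cause of the gap between ranges was not tested. For training in LV, DESeq2 called 1 gene, and Slc37a2 (0.26) passed only in the exact permutation test, which is not adjusted over genes (p = 0.00291). For MT minus SM, thinning left 11532 genes called, with fewer genes tested. With the rat as a replicate block, 3 genes were called for the training difference between MT and SM, the values for Slc29a4, Slc37a2 and Atp2b2 being -1.31, -0.72 and -0.89. Slc29a4 was no longer called there, and the block changed no other call of a member. Without single libraries, the genes called for training in SM ranged from 12 to 100, highest without rat 23 of SM_Sed. It moved by over 1.5 times without Sed rats 4, 7, 8, 12, 20, 23, 24, 29 or 30, or ExT rats 5, 6, 10, 14, 25 or 27. Slc29a4 was not called without Sed rats 4, 8, 12 or 20, or ExT rats 5, 6, 10, 14, 25 or 27, and Slc37a2 was called without Sed rats 23 or 29 or ExT rat 22. The log2 fold changes ranged from 1.10 to 1.31 for Slc29a4, 0.49 to 0.60 for Slc37a2 and 0.71 to 0.87 for Atp2b2. In LV they ranged from 0.23 to 0.31 for Slc37a2 and 0.09 to 0.20 for Atp2b2. Few counts limit all 3 members in MT, and Slc29a4 in LV had few counts although those libraries were the deepest.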
